A study of Mus musculus with 5 samples.

Results

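Cytotoxic effector genes were followed in single cells of the atherosclerotic mouse aortic arch. The set comprised 9 of the 16498 genes in the table, taken by name: the granzymes Gzma, Gzmb and Gzmk, the pore-forming protein gene Prf1, the granule gene Nkg7, the chemokines Ccl3, Ccl4 and Ccl5, and the checkpoint receptor gene Pdcd1. Their levels were read in CD8+ T cells, in the other Cd3+ T cells and, for the chemokines, in macrophages. A CD8+ cell was a cell of an NK/T-like cluster with a UMI (unique molecular identifier, 1 counted RNA molecule) of Cd3d, Cd3e or Cd3g and a UMI of Cd8a or Cd8b1. An other Cd3+ cell had a Cd3 UMI and no Cd8a or Cd8b1 UMI. This gave 470 CD8+ cells and 213 other Cd3+ cells out of 18260 cells, and 60 further cells of these clusters had no Cd3 UMI.

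The study sequenced live (DAPI-sorted) cells of the aortic arch by droplet 3′ RNA sequencing, to compare Oasl1+/+Apoe-/- with Oasl1-/-Apoe-/- mice. Both groups lack Apoe, which makes mice prone to atherosclerosis, were on a C57BL/6 background and were kept on normal chow for 28 weeks, and their age is not given in the sources used here. The second group also carries a deletion of the promoter and exon 2 of Oasl1 in every cell, so a difference in T cells or macrophages cannot be assigned to the cell type that lost the gene. There were 2 libraries of the first group, called Apoe-/- below, and 3 labelled Oasl1-/-Apoe-/-. Aortas of 6 mice were pooled, without a statement whether per library or per group, and p-values therefore measure the spread between libraries, which may be technical.

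Granzymes are serine proteases that killer lymphocytes store in granules, and perforin opens the target cell membrane to them. Granzyme A and granzyme B are carried by both CD8+ T cells and natural killer (NK) cells, while granzyme K marks CD8+ T cells of an effector-memory kind. CCL3, CCL4 and CCL5 are chemokines that attract monocytes and T cells. They are made by activated CD8+ T cells, and CCL3 and CCL4 also by macrophages and neutrophils. PD-1, the product of Pdcd1, restrains T cells that have met antigen, and CD8+ T cells with granzymes and PD-1 are known residents of atherosclerotic plaques.

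On GRCm38 (mm10), the 3 chemokine genes lie close together on chromosome 11, Ccl5 at chr11:83525778-83530518, Ccl3 at chr11:83647844-83649355 and Ccl4 at chr11:83662584-83664683. Gzma at chr13:113093825-113100981 and Gzmk at chr13:113171608-113225908 are neighbours, whereas Gzmb lies at chr14:56258838-56262260. Prf1 is at chr10:61297833-61304680, Nkg7 at chr7:43437073-43438249 and Pdcd1 at chr1:94038305-94052553. All 9 are annotated as protein-coding genes.

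The libraries held 3212 to 4338 cells and 16959976 to 19813039 UMIs, with median UMIs per cell of 4495 to 5186 and 165 cell barcodes found in more than 1 library. The targeted gene Oasl1 went against the labels, with counts of 299, 257 and 315 where the label gives Oasl1-/-Apoe-/- beside 27 and 16 in Apoe-/- libraries. The libraries count tags at the 3′ end, and where these lie against the deleted part was not tested. The cause of this conflict was not tested either, and the group is written as labelled throughout. Apoe had 233 to 278 UMIs in every library. CD8+ cells had a median of 1910 UMIs (1796 to 2076 by library) and other Cd3+ cells 1458 (1370 to 1598). The CD8+ cells held Trac in 369 of 470 cells, Cd4 and Trdc in 2 each and Ncr1, an NK receptor gene, in 0 of 470, which allows a share of cells with a UMI of up to 0.638%. This and later limits and intervals cover counting error only, and a limit holds for cells with a UMI, not for cells that express the gene. Among the 213 other Cd3+ cells, 32 had a Cd4 UMI, 25 had a Trdc UMI (the gamma-delta receptor chain) and 156 had neither, so this class is a mixture. Smooth muscle markers (3 genes) summed to 2.11 to 13.6 CP10K (UMIs per 10000 UMIs of the cell) in CD8+ and 2.15 to 27.8 in other Cd3+ cells. Macrophage markers (5 genes) summed to 0.774 to 1.66 and 0.150 to 7.27 CP10K. Red cell genes (3 genes) ranged from 0.901 to 103 CP10K in CD8+ cells, highest in Apoe-/- library 1, and from 0.535 to 161.5 in other Cd3+ cells, highest in Apoe-/- library 2. B cell markers (3 genes) stayed at or below 0.0841 CP10K and fibroblast markers (2 genes) at or below 1.47 CP10K in both.

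Across the cell classes of the aorta, the granzymes, Prf1, Nkg7 and Pdcd1 were found almost entirely in NK/T-like cells, whereas Ccl3 and Ccl4 were spread over myeloid cells. CD8+ cells carried 85.7% of all Gzmk UMIs, 82.3% of Nkg7, 77.9% of Pdcd1, 73.6% of Gzmb, 63.2% of Ccl5 and 61.7% of Prf1. They carried 1.64% of the Ccl3 and 6.66% of the Ccl4 UMIs, and macrophage-like cells carried 58.1% and 65.8% of them. Gzma had a different source, since the 60 Cd3- cells of the NK/T-like clusters held 56.1% of its UMIs and CD8+ cells 28.8%. These Cd3- cells had Klrb1c UMIs in 26 and Ncr1 UMIs in 18 of 60 cells, which are NK cell receptor genes.

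**Figure D1:**
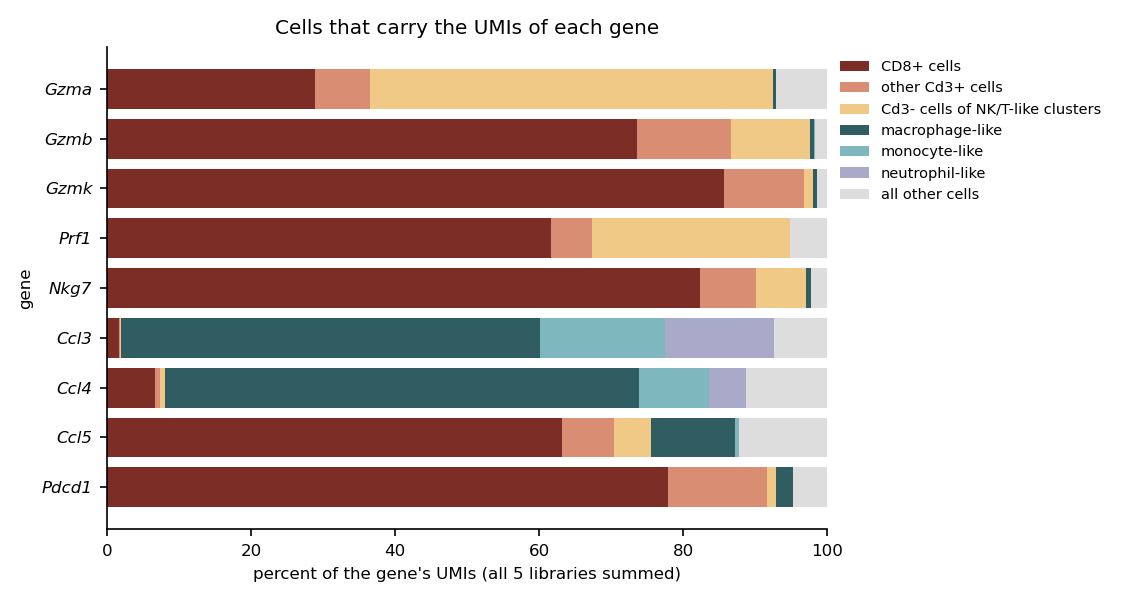
Share of each gene's UMIs (percent, x axis) by cell class, with all 5 libraries summed. CD8+ cells hold most UMIs of Gzmb, Gzmk, Prf1, Nkg7, Ccl5 and Pdcd1, Cd3- cells hold 56.1% of Gzma, and macrophage-like cells hold 58.1% of Ccl3 and 65.8% of Ccl4.

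Per cell, Gzma was highest in the Cd3- cells, with mean levels of 43.9 and 152 CP10K in the Apoe-/- libraries and 19.8, 38.2 and 62.6 in those labelled Oasl1-/-Apoe-/-. The range over libraries did not overlap that of other Cd3+ cells (1.89 to 8.97) or CD8+ cells (1.94 to 6.03), which overlapped each other. Prf1 was also highest in Cd3- cells, but CD8+ cells came next, with 4.44 ± 2.30 CP10K (SD, n = 5 libraries) in Cd3- cells, 1.08 ± 0.449 in CD8+ cells and 0.399 ± 0.514 in other Cd3+ cells. Gzmb did not separate these classes by their ranges, with 10.3 ± 5.81 CP10K in Cd3-, 8.13 ± 1.75 in CD8+ and 4.66 ± 3.43 in other Cd3+ cells. Gzmk ran the other way, from 4.85 ± 1.09 CP10K in CD8+ and 2.13 ± 0.928 in other Cd3+ to 0.470 ± 0.523 in Cd3- cells. Pdcd1 followed Gzmk, with 5.46 ± 1.15, 2.95 ± 0.587 and 1.03 ± 0.899 CP10K in the same order. Nkg7 and Ccl5 were the most abundant of the 9 in CD8+ cells, at 49.8 ± 9.83 and 184.8 ± 35.1 CP10K.

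Ccl3 and Ccl4 were highest in the 112 neutrophil-like cells, at 176.5 ± 42.2 and 170.0 ± 75.8 CP10K, and these ranges did not overlap those of any other class. Monocyte-like (11.8 ± 5.54), macrophage-like (6.87 ± 0.964) and cycling macrophage-like cells (4.36 ± 1.86) came next for Ccl3, above CD8+ cells (2.81 ± 1.54), although each range overlapped the next. For Ccl4, CD8+ cells (30.0 ± 11.6 CP10K) came second and overlapped Cd3- cells (26.9 ± 21.5), macrophage-like cells (18.2 ± 5.76) and monocyte-like cells (16.6 ± 8.56). Ccl5 was not found in neutrophil-like cells (0 of 112 cells at a median of 988.5 UMIs, which allows a share with a UMI of up to 2.68%), and dendritic-like cells were its highest class outside the NK/T-like clusters at 10.6 ± 5.63 CP10K. Some values outside lymphocytes rested on single cells. Of the 95 Gzma UMIs in cycling macrophage-like cells, 94 came from 1 cell, and of the 571 Ccl5 UMIs in cartilage-like cells of Apoe-/- library 2, 353 came from 1 cell.

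**Figure D2:**
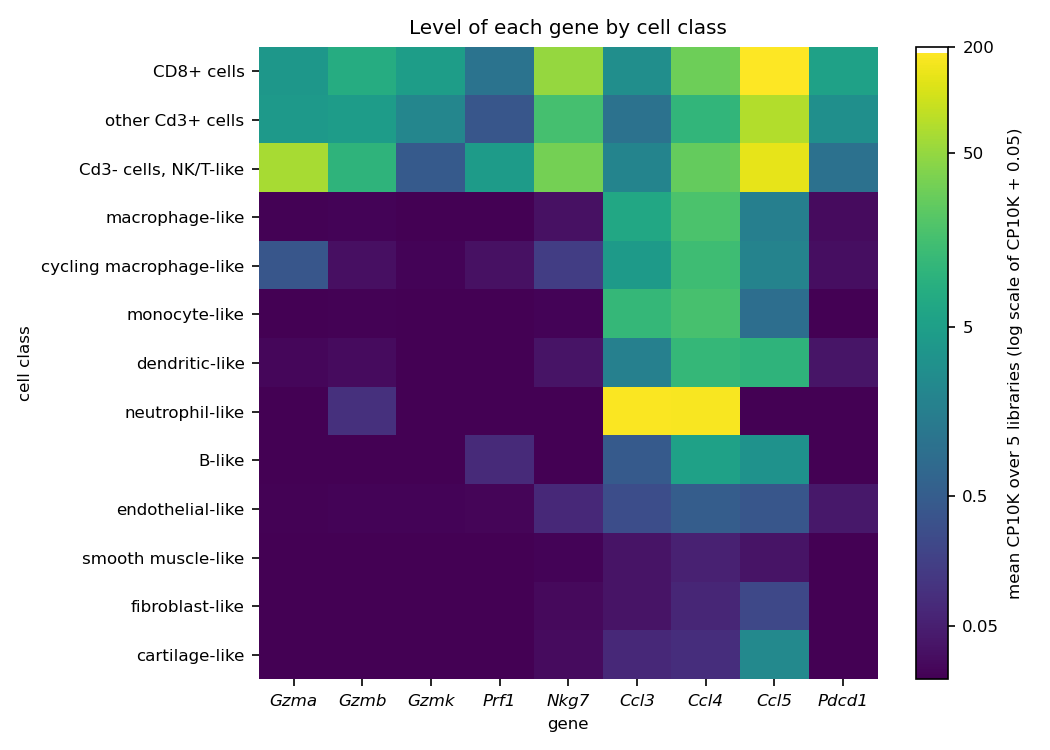
Mean level of each gene (columns) in each cell class (rows), as the mean CP10K over 5 libraries on a log colour scale of CP10K + 0.05. Gzma, Gzmb, Gzmk, Prf1, Nkg7 and Pdcd1 are above 0.5 CP10K only in the top 3 rows, and Ccl3 and Ccl4 are brightest in neutrophil-like cells.

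The share of CD8+ cells with a UMI differed widely between the genes. Nkg7 was found in 459 of 470 CD8+ cells (97.7%, 95% Wilson interval 95.9 to 98.7) and Ccl5 in 441 (93.8%, 91.3 to 95.7). Ccl4 (63.4%), Gzmk (55.5%), Pdcd1 (52.8%) and Gzmb (48.9%) were each found in a middling share. Ccl3 (20.6%), Prf1 (19.1%) and Gzma (11.1%, 8.54 to 14.2) were found in a minority. Prf1 had 121 UMIs in 90 cells and Gzma 422 UMIs in 52 cells. How far a low level set the Prf1 share was not tested. In smooth muscle-like cells, which should lack these genes and had a median of 4883 UMIs, the share was at most 2.23% (Ccl4) and under that for the other 8 genes, with Prf1 in 0 of 9463 cells, which allows up to 0.0317%. After thinning to 1000 UMIs per cell (15 CD8+ and 35 other Cd3+ cells were shallower and not used), Nkg7 was found in 93.8% of CD8+ and 45.5% of other Cd3+ cells. Ccl5 was found in 91.2% and 46.6%, Ccl4 in 53.4% and 16.9%, Gzmb in 39.8% and 14.6%, and Gzmk in 32.7% and 12.4% (55.5% and 18.3% before thinning).

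The 3 granzymes were combined differently from cell to cell. Of the 470 CD8+ cells, 125 had no granzyme UMI, 182 had 1 granzyme, 128 had 2 and 35 had all 3. A granzyme UMI was thus present in 345 cells (73.4%), a granzyme together with Prf1 in 74 (15.7%), and at least 1 of the 9 genes in 465. Gzma lay mostly within the Gzmb cells, since 45 of 52 cells with Gzma had Gzmb (86.5%) against 185 of 418 without Gzma (44.3%), higher in 5 of 5 libraries and 79.5% against 36.1% after thinning. Ccl3 lay within the Ccl4 cells, with 90 of 97 cells with Ccl3 holding Ccl4 (92.8%) against 208 of 373 without it (55.8%), higher in 5 of 5 libraries and 87.3% against 48.0% after thinning. Gzmb was found in 59.1% of cells with Ccl4 and 31.4% of cells without it, again in 5 of 5 libraries. Pdcd1 and Gzmk were found together in 151 of 248 Pdcd1 cells (60.9%) against 110 of 222 others (49.5%), but after thinning the shares were 30.5% and 33.9%. These shares are given as descriptions over cells, which are not replicates.

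CD8+ cells had higher levels of 7 of the 9 genes than other Cd3+ cells of the same libraries. The largest differences were in Nkg7 (3.02-fold), Ccl4 (2.71-fold) and Ccl5 (2.57-fold), followed by Ccl3 (2.21-fold), Gzmk (2.10-fold), Gzmb (1.96-fold) and Pdcd1 (1.72-fold). Gzma and Prf1 did not pass the test. Among all 2450 genes tested, 1.63% were higher in CD8+ cells by the same rule, an adjusted p under 0.05 in limma paired by library with Benjamini-Hochberg adjustment over all genes tested. The folds are on the scale of log2(mean CP10K + 0.5) per library, which understates changes of low genes. The filter of 0.5 CP10K was on the mean of both classes, so a gene could pass it through 1 class alone. The median difference of the 9 genes was 1.07 on the log2 scale, beside -0.00299 for all genes tested.

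Nkg7 was 39.0 and 40.3 CP10K in CD8+ cells of the Apoe-/- libraries and 56.0, 52.1 and 61.5 in those labelled Oasl1-/-Apoe-/-. In other Cd3+ cells it was 16.7, 16.2, 15.9, 12 and 19.8 CP10K in the same order, so that the 2 classes did not overlap (log2 difference 1.59 ± 0.10 SE, limma adjusted p = 2.7e-10). Ccl5 was 137.6, 160, 193, 216.5 and 216.6 CP10K in CD8+ cells and 93.3, 71.5, 60.4, 58.5 and 73.6 in other Cd3+ cells (1.36 ± 0.107, limma adjusted p = 1.1e-08), again with no overlap. Gzmk was 3.67, 3.92, 6.06, 5.85 and 4.76 against 1.61, 1.11, 2.20, 3.59 and 2.12 CP10K (1.07 ± 0.164, limma adjusted p = 0.00012), also without overlap. Pdcd1 was 4.77, 3.98, 7.01, 5.61 and 5.91 against 2.93, 2.10, 3.41, 2.73 and 3.57 CP10K (0.78 ± 0.147, limma adjusted p = 0.0012) and was higher in CD8+ cells in all 5 libraries.

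Ccl4 and Ccl3, the other chemokine genes of the set, had larger standard errors than Ccl5. Ccl4 was 14.6, 21.6, 38.8, 42.3 and 32.6 CP10K in CD8+ cells and 10.4, 4.27, 14.1, 8.26 and 18.4 in other Cd3+ cells (1.44 ± 0.179, limma adjusted p = 7.8e-06). Ccl3 was 1.30, 1.23, 4.83, 3.51 and 3.18 against 1.29, 0.173, 0.298, 1.56 and 1.88 CP10K (1.14 ± 0.265, limma adjusted p = 0.0096). Both were higher in CD8+ cells in 5 of 5 libraries, although Ccl3 differed by only 0.01 on the log2 scale in Apoe-/- library 1. Without replicate 1 or replicate 2 labelled Oasl1-/-Apoe-/-, Ccl3 no longer passed the test (0.74 and 1.18, limma adjusted p = 0.12 and 0.059), nor did it with no filter or no library block (limma adjusted p = 0.35 and 0.11).

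Gzmb was 7.36, 5.41, 9.14, 9.65 and 9.08 CP10K in CD8+ cells and 9.68, 2.69, 2.74, 1.46 and 6.69 in other Cd3+ cells (0.97 ± 0.240, limma adjusted p = 0.015). It was higher in CD8+ cells in 4 of 5 libraries, the exception being Apoe-/- library 1. Without replicate 1 or replicate 2 labelled Oasl1-/-Apoe-/-, its difference was 0.82 and 0.63 with limma adjusted p of 0.14 and 0.20. The Gzmb call was also lost with no filter, with limma-voom and with no library block (limma adjusted p = 0.45, 0.12 and 0.13). In other Cd3+ cells of replicate 3, 49 of the 57 Gzmb UMIs came from 1 cell. Prf1 was 0.586, 0.658, 1.13, 1.41 and 1.60 CP10K in CD8+ cells and 0.629, 0, 1.20, 0 and 0.169 in other Cd3+ cells, from 121 and 11 UMIs. With a mean of 0.399 CP10K in other Cd3+ cells, under the filter of 0.5, Prf1 entered only through CD8+ cells. The values for Prf1 here are thus a description. Its difference of 0.94 ± 0.277 missed the threshold (limma adjusted p = 0.051, 95% interval 0.36 to 1.51) and passed it in 5 of 15 alternatives. These were without Apoe-/- library 1 or replicate 1 labelled Oasl1-/-Apoe-/- (1.19 each, limma adjusted p = 0.0067 and 0.041), with all Cd3+ cells of the table (1.02, 0.019), without cycling cells (0.94, 0.040) and on the deposited log values (adjusted p = 7.4e-05). A pseudocount of 0.05 in place of 0.5 gave 2.29 for Prf1 without a call (limma adjusted p = 0.090). Gzma, at 1.94, 4.06, 3.78, 6.03 and 3.26 against 8.97, 5.13, 2.18, 2.32 and 1.89 CP10K, was lower in CD8+ cells in both Apoe-/- libraries and higher in the other 3 (0.06 ± 0.281, limma adjusted p = 0.96, 95% interval -0.53 to 0.64).

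**Figure D3:**
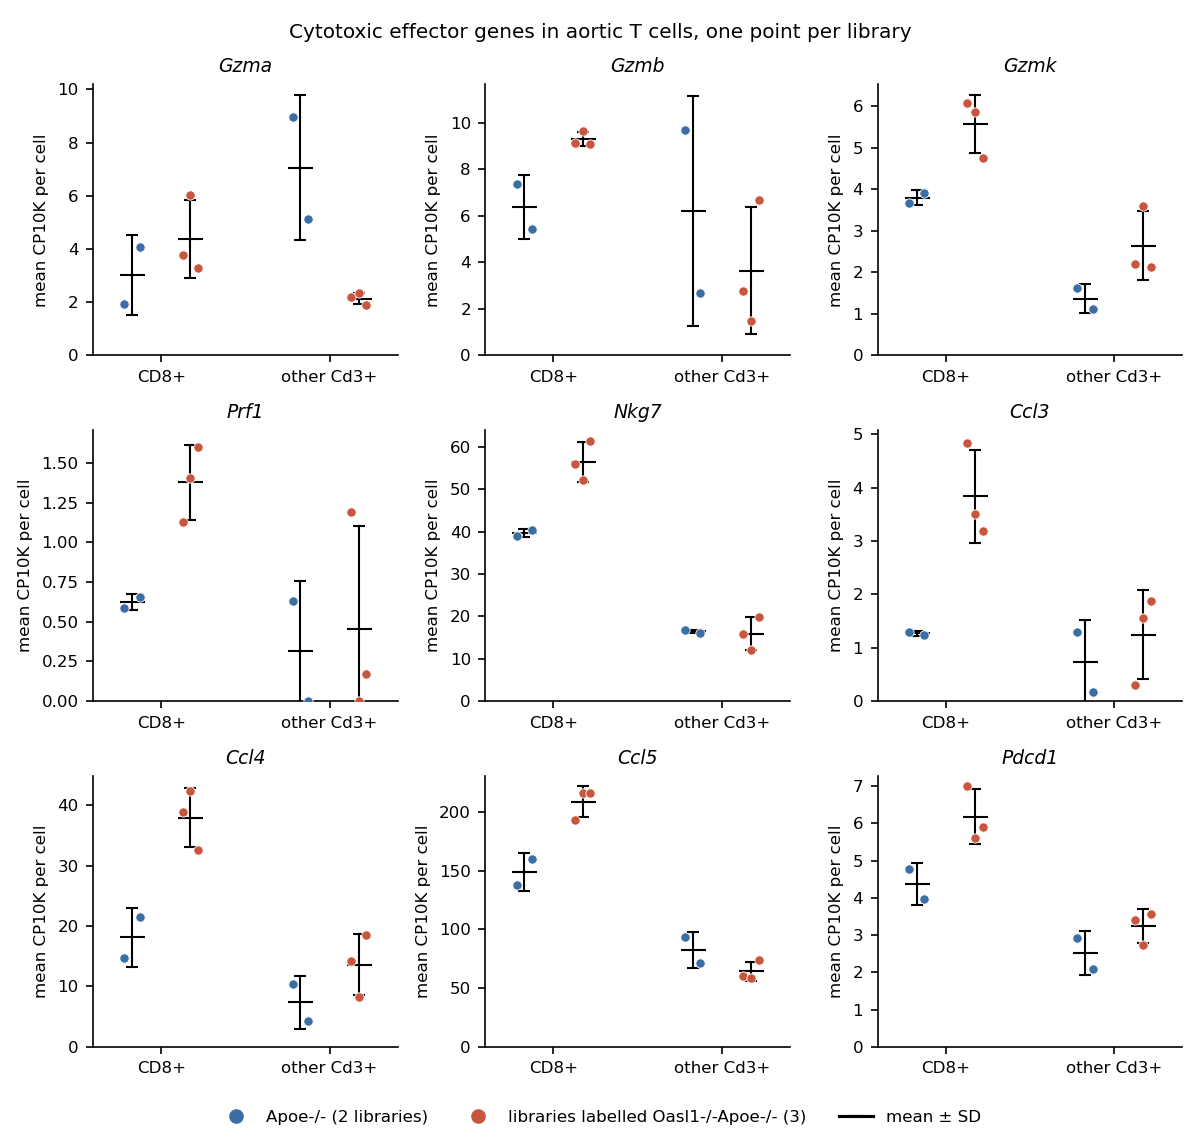
Mean CP10K per cell (y axis, from 0) of each gene in CD8+ and other Cd3+ cells, 1 point per library, with mean ± SD of each group (bars cut at 0). Nkg7, Ccl5, Gzmk and Pdcd1 are higher in CD8+ cells in every library, and in CD8+ cells the points of the libraries labelled Oasl1-/-Apoe-/- lie above both Apoe-/- points for every gene except Gzma.

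Other genes of the cytotoxic pathway were read from the fixed lists. Of the 16 further genes of granules and killing, 11 were tested and 3 were higher in CD8+ cells: Xcl1, a chemokine for cross-presenting dendritic cells (0.92 ± 0.202, limma adjusted p = 0.0063), the granule protease gene Ctsw (0.89 ± 0.204, limma adjusted p = 0.0089) and the protease inhibitor gene Cst7 (0.68 ± 0.192, limma adjusted p = 0.036). Ifng and Fasl, at 0.29 ± 0.167 and 0.56 ± 0.186, did not pass (limma adjusted p = 0.43 and 0.092). Of 12 NK receptor genes, 5 were tested and Klrd1 (CD94) was higher, at 3.52 against 1.03 CP10K (1.49 ± 0.269, limma adjusted p = 0.00080). Among 5 tested checkpoint genes, Lag3 was higher (1.47 ± 0.247, limma adjusted p = 0.00033) and the costimulator gene Icos lower (-1.07 ± 0.155, limma adjusted p = 6.4e-05). Lag3 was at 1.99 CP10K in CD8+ and 0.345 in other Cd3+ cells, so it passed the filter only through CD8+ cells. None of the 6 tested regulators of effector cells passed.

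The genes lower in CD8+ cells, 3.59% of all tested, included 6 of 7 tested genes of helper, regulatory and gamma-delta T cells. They were Tnfrsf4 (-1.95 ± 0.225), Cd4 (-1.59 ± 0.235), Rora (-1.42 ± 0.189), Gata3 (-1.16 ± 0.203), Trdc and Il17a. Cd4 was at 0.0407 CP10K in CD8+ and 1.15 in other Cd3+ cells. Cd4, Trdc and Il17a passed the filter only through other Cd3+ cells, so their place in this count is a description. In other Cd3+ cells Trdc was 0 and 4.79 CP10K in the Apoe-/- libraries and 5.83, 8.09 and 4.26 in the others, and Il17a was 0, 1.57, 2.25, 3.26 and 2.21. In CD8+ cells Il17a had no UMI and Trdc only in 1 library, so no fold is given for them. The memory genes Il7r (-1.31 ± 0.195) and S1pr1 (-0.94 ± 0.218), and Nfkbia (-1.48 ± 0.135) and Nfkbiz (-0.94 ± 0.232), which code for regulators of NF-kB, were also lower (limma adjusted p = 7.9e-05, 0.0096, 9.99e-08 and 0.015). The smooth muscle marker Acta2 was lower in CD8+ cells too (-1.11 ± 0.326, limma adjusted p = 0.049), and its part in the other differences was not tested. Outside the fixed lists, the largest rises of the same sign in every library were in Rgs16 (1.33 ± 0.225), a regulator of G protein signalling, the adaptor gene Sh2d2a (1.07 ± 0.176) and the integrin gene Itga4 (0.94 ± 0.226). The largest falls were in Ramp3 (-2.96 ± 0.190), Tmem176b (-2.41 ± 0.203), Tmem176a (-2.32 ± 0.241) and Ramp1 (-2.24 ± 0.223), and all these genes were past the limma threshold. In CD8+ cells these falls were at 0.222, 0.116, 0.0332 and 0.229 CP10K in the same order, under the filter of 0.5. Itga4 was at 0.332 CP10K in other Cd3+ cells. These genes thus entered only through the class where they were higher.

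Within CD8+ cells, levels of 5 of the 9 genes were higher in the libraries labelled Oasl1-/-Apoe-/- than in Apoe-/- libraries, and none was lower. Ccl3 rose 2.42-fold and Ccl4 2.09-fold, while Gzmb (1.44-fold), Nkg7 (1.42-fold) and Ccl5 (1.40-fold) rose less. Among all 2343 genes tested, 3.12% were higher and 1.49% lower by the same rule (limma, Benjamini-Hochberg adjusted p under 0.05). No Apoe-/- library reached any of the others in 8 of the 9 genes, all but Gzma, beside 33.6% of all genes tested. The median difference was 0.50 on the log2 scale for the 9 genes and 0.0375 for all genes tested.

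From the library values given above, mean Ccl3 in CD8+ cells was 1.27 ± 0.0491 CP10K (SD, n = 2) against 3.84 ± 0.873 (n = 3), and Ccl4 was 18.1 ± 4.89 against 37.9 ± 4.90. The log2 differences were 1.28 ± 0.182 (SE, limma adjusted p = 0.0013) for Ccl3 and 1.06 ± 0.143 (limma adjusted p = 0.0012) for Ccl4. The Ccl3 UMIs behind this were 13 and 14 in the Apoe-/- libraries and 105, 78 and 80 in those labelled Oasl1-/-Apoe-/-, from 3, 8, 29, 27 and 30 cells. More cells had a Ccl3 UMI (8.87% against 24.9%, and 7.44% against 16.2% after thinning) and more had a Ccl4 UMI (52.4% against 67.3%, and 41.3% against 57.8% after thinning). Both calls held without each library in turn.

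Nkg7, at 39.7 ± 0.930 against 56.5 ± 4.70 CP10K, and Ccl5, at 149 ± 15.8 against 209 ± 13.5, rose in level while nearly all CD8+ cells of both groups held them. Nkg7 was found in 94.4% of Apoe-/- CD8+ cells and 98.8% of the others (91.7% and 94.6% after thinning), and Ccl5 in 91.9% and 94.5% (93.4% and 90.4% after thinning). Their log2 differences were 0.50 ± 0.0787 (limma adjusted p = 0.0025) and 0.49 ± 0.0683 (limma adjusted p = 0.0013). Gzmb was 6.39 ± 1.38 against 9.29 ± 0.312 CP10K (0.52 ± 0.135, limma adjusted p = 0.047), which lay close to the threshold. The Gzmb call was lost in 12 of 14 alternatives, with a limma adjusted p of 0.0505 to 0.22, and held only without Apoe-/- library 1 and without cycling cells (0.73 and 0.58, limma adjusted p = 0.0044 and 0.031). Among the losses were those without Apoe-/- library 2 (0.32, limma adjusted p = 0.19) and without replicate 1, 2 or 3 labelled Oasl1-/-Apoe-/- (0.53, 0.50 and 0.54, limma adjusted p = 0.17, 0.15 and 0.16). With limma-voom on summed UMIs, 3 of the 9 genes passed, and the adjusted p was 0.22 for Gzmb and 0.11 for Ccl5.

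The other 4 genes did not pass in CD8+ cells. Prf1 was 0.622 ± 0.0511 against 1.38 ± 0.236 CP10K, from 15 UMIs in the Apoe-/- libraries, and missed the threshold narrowly (0.74 ± 0.194, limma adjusted p = 0.0503, 95% interval 0.32 to 1.16). Gzmk was 3.79 ± 0.176 against 5.56 ± 0.699 CP10K (0.49 ± 0.143, limma adjusted p = 0.071) and Pdcd1 was 4.38 ± 0.559 against 6.18 ± 0.739 (0.45 ± 0.143, limma adjusted p = 0.099). In these 3 genes both Apoe-/- libraries lay below all 3 others. Pdcd1 passed without Apoe-/- library 1 (0.57, limma adjusted p = 0.047) and Gzmk without cycling cells (0.57, limma adjusted p = 0.038). Prf1 passed with a pseudocount of 0.05 (1.08, limma adjusted p = 0.042) and with all Cd3+ cells of the table (0.74, limma adjusted p = 0.047). Gzma, at 3.0 ± 1.5 against 4.36 ± 1.47 CP10K, overlapped between the groups (0.50 ± 0.262, limma adjusted p = 0.36, 95% interval -0.07 to 1.07), and 38 of the 42 Gzma UMIs in CD8+ cells of Apoe-/- library 1 came from 1 cell. Without Apoe-/- library 2 it passed (0.95, limma adjusted p = 0.034).

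**Figure D4:**
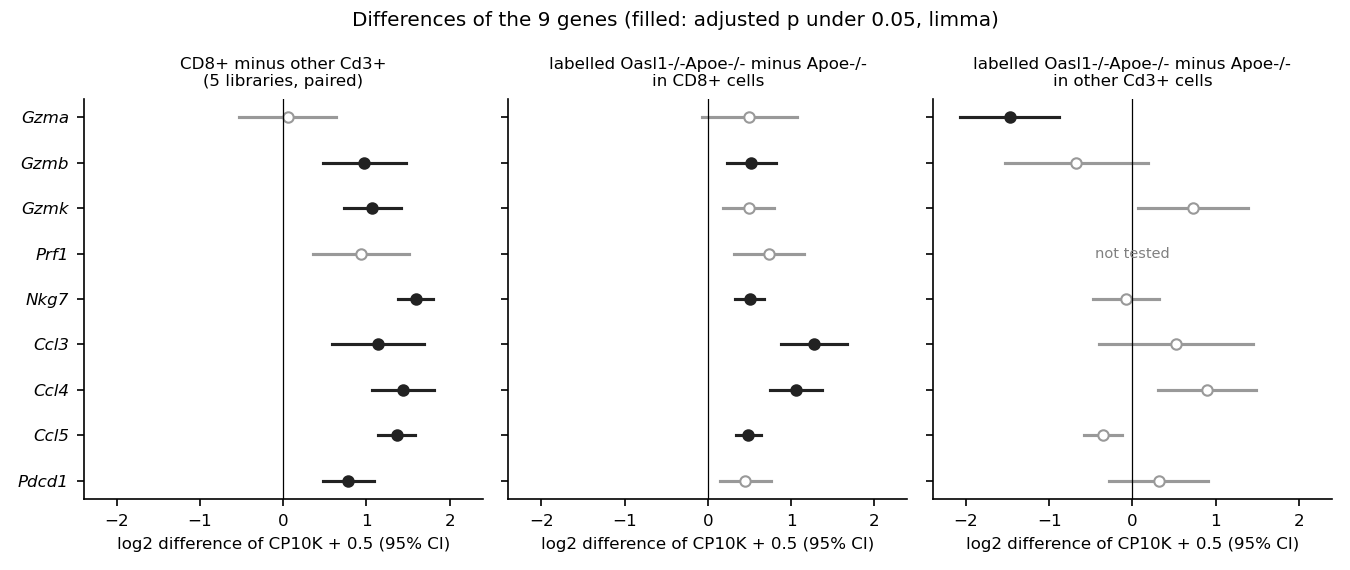
Log2 differences of mean CP10K + 0.5 (x axis, points with 95% intervals) of the 9 genes, from left to right for CD8+ against other Cd3+ cells and for libraries labelled Oasl1-/-Apoe-/- against Apoe-/- in CD8+ and in other Cd3+ cells. Filled points have a limma adjusted p under 0.05, which holds for 7, 5 and 1 of the genes, and Prf1 was not tested in other Cd3+ cells.

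Regulators of effector T cells were also higher in CD8+ cells of the libraries labelled Oasl1-/-Apoe-/-, with 4 of 6 tested genes past the threshold. Batf, a factor of activated T cells, was 0.520 and 0.504 CP10K in the Apoe-/- libraries and 1.77, 1.66 and 1.5 in the others (log2 difference 1.08 ± 0.183). The other 3 were Eomes, a regulator of cytotoxic genes (0.80 ± 0.201), Bhlhe40 (0.77 ± 0.136) and Id2 (0.69 ± 0.136). Among the checkpoints, Tox rose by 1.14 ± 0.272 and Lag3 by 0.996 ± 0.222 on the log2 scale, 2 of 5 tested. The NK receptor gene Klrk1 (0.89 ± 0.204) rose as well. So did the TNF receptor genes Tnfrsf4 (1.41 ± 0.228) and Tnfrsf18 (0.80 ± 0.177), which code for OX40 and GITR. Tnfrsf4 was 0.0562 and 0.356 CP10K in the Apoe-/- libraries and 1.34, 1.20 and 1.48 in the others. It thus passed the filter of 0.5 CP10K only through the libraries where it was high, and its difference is a description. Ier3 (0.97 ± 0.225), an early response gene, also rose and was the 1 of 5 tested inflammatory genes to pass. Tcf7 (-0.83 ± 0.198) and Klf2 (-0.63 ± 0.165), genes of naive and memory T cells, were the 2 of 7 tested memory genes that fell. These genes had limma adjusted p values of 0.0029 to 0.049. None of the 12 tested further genes of granules and killing passed. The red cell genes, 3 tested, had a median of -1.67 with none past the threshold, and their part in these differences was not tested.

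The same comparison in other Cd3+ cells covered 8 genes, as Prf1 was under the filter of 0.5 CP10K. None was higher in the libraries labelled Oasl1-/-Apoe-/- and Gzma was lower, where 0.276% of 2535 genes tested were lower and 0.868% passed in either direction. Gzma was 8.97 and 5.13 CP10K in the Apoe-/- libraries and 2.18, 2.32 and 1.89 in the others, with no overlap (-1.48 ± 0.289, limma adjusted p = 0.0094). This rested on 14 cells with a Gzma UMI, 9 of 64 against 5 of 149, and on 70 against 42 UMIs. Of these 14 cells, 6 had Klrd1 and 2 had Klrb1c UMIs, against 12 and 1 of the 199 cells without Gzma, and Trac was found in 7 of them. Without Apoe-/- library 1 the difference was -1.10 (limma adjusted p = 0.19), and the limma adjusted p was 0.14 in cells with at least 1000 UMIs and 0.061 with limma-voom. None of the genes of the other lists passed. Among markers of other cells, the log2 differences had medians of -1.28 over 3 smooth muscle genes (1 of them not overlapping) and -1.3 over 3 red cell genes, and Lyz2, the 1 macrophage marker tested, was at -1.25. None passed, and their part in the Gzma difference was not tested.

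The remaining 7 tested genes had wide intervals in other Cd3+ cells. Nkg7 was 16.4 ± 0.393 against 15.9 ± 3.91 CP10K (-0.08 ± 0.191, 95% interval -0.47 to 0.32, limma adjusted p = 0.94). Ccl5 was 82.4 ± 15.4 against 64.2 ± 8.19 CP10K (-0.35 ± 0.112, limma adjusted p = 0.18) and Ccl4 was 7.34 ± 4.35 against 13.6 ± 5.10 (0.90 ± 0.289, limma adjusted p = 0.20). Ccl4 passed with no filter (limma adjusted p = 0.011), without Apoe-/- library 1 (1.49, limma adjusted p = 0.042) and without replicate 2 labelled Oasl1-/-Apoe-/- (1.20, limma adjusted p = 6.4e-05).

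Whether the group difference itself differed between CD8+ and other Cd3+ cells was tested on the difference per library. None of the 8 genes passed, and 0% of the 2113 genes tested did (limma), although 166 had an unadjusted p under 0.05 and limma-voom called 1 gene, none of the 8. The estimates were 1.98 ± 0.478 for Gzma (limma adjusted p = 0.57, unadjusted p = 0.0029), 1.19 ± 0.659 for Gzmb, 0.84 ± 0.604 for Ccl5 and 0.58 ± 0.743 for Nkg7. For Ccl4 the estimate was 0.17 ± 0.809, with a 95% interval of -1.68 to 2.01. On simulated data of this comparison with 2220 genes, 2.35% of genes changed by 1 on the log2 scale were recovered and 60.0% of those changed by 2. A difference of 1 between the cell classes was thus mostly not detected in the simulation. The simulation drew counts per library with a fixed spread and no variation between single cells. Its shares may therefore not hold for genes whose UMIs came from few cells.

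In macrophage-like cells, 3 of the 9 genes were above the filter of 0.05 CP10K, and these were the chemokines. Ccl5 was 0.617 and 0.588 CP10K in the Apoe-/- libraries and 2.31, 3.22 and 1.80 in those labelled Oasl1-/-Apoe-/- (1.89 ± 0.163, limma adjusted p = 9.8e-07). Ccl4 was 12.1 and 12.3 against 24.4, 19.5 and 22.8 CP10K (0.85 ± 0.0755, limma adjusted p = 1.2e-06). Ccl3 was 6.43 and 5.52 against 7.80, 6.82 and 7.79 CP10K (0.32 ± 0.0784, limma adjusted p = 0.011). All 3 rose, on the scale of log2(mean CP10K + 0.05), where 9.95% of 8080 genes tested were higher and 6.36% lower. The other 6 genes were at or below 0.0394 CP10K in each library, and Prf1 was found in 0 of 3080 cells, which allows a share with a UMI of up to 0.0974%.

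Macrophage-like cells comprised 3 clusters in different proportions. The cluster with Ccl12 and Ccl8 as leading genes held 13.7% ± 0.551 of them in Apoe-/- and 45.1% ± 2.37 in libraries labelled Oasl1-/-Apoe-/-. The cluster with Gpnmb and Trem2 held 54.0% ± 0.780 and 35.7% ± 0.570, and the cluster of low UMI counts 32.3% ± 0.229 and 19.3% ± 2.82. The Ccl12 and Ccl8 cluster had the highest Ccl3 and Ccl4 of the 3 in every library. Within it, Ccl3 was 26.9 and 19.5 CP10K in the Apoe-/- libraries and 13, 11.4 and 12.7 in the others, so it was lower rather than higher (-0.89, limma adjusted p = 0.011). Ccl4 there was 50.5 and 45.7 against 41.8, 35.8 and 37.6 CP10K (-0.33, limma adjusted p = 0.062). In the Gpnmb and Trem2 cluster Ccl3 was 4.09 ± 0.606 against 3.47 ± 0.0885 CP10K and Ccl4 was 9.05 ± 0.488 against 8.94 ± 1.73, and neither passed (-0.23 and -0.03, limma adjusted p = 0.15 and 0.92). With the 3 clusters weighted equally in each library, the Ccl3 difference was -0.59 (limma adjusted p = 0.0016) and the Ccl4 difference -0.09 (limma adjusted p = 0.71). In the cluster of low UMI counts, Ccl4 was 0.869 and 3.65 against 12.1, 4.64 and 10.4 CP10K (2.19, limma adjusted p = 2.3e-06) and Ccl3 did not pass (0.88, limma adjusted p = 0.063). For both Ccl3 and Ccl4, the sign of the difference with equal weights was thus the opposite of that over all macrophage-like cells. With equal weights only the Ccl3 difference passed. The part of the makeup of these cells in the pooled Ccl3 and Ccl4 rises was not tested.

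Ccl5 was higher in 2 of the 3 macrophage clusters. In the Ccl12 and Ccl8 cluster it was 0.744 and 1.38 against 4.12, 5.28 and 2.44 CP10K, a rise of 1.84 (limma adjusted p = 0.024), and cells with a Ccl5 UMI made up 5.69% and 23.1% (4.07% and 11% after thinning). It rose by 2.08 in the cluster of low UMI counts (limma adjusted p = 6.5e-06) and by 1.61 with the 3 clusters weighted equally (limma adjusted p = 2.4e-05). In the Gpnmb and Trem2 cluster it did not pass (0.25, limma adjusted p = 0.47). Without Apoe-/- library 2, or without replicate 1 or 3 labelled Oasl1-/-Apoe-/-, the pooled Ccl3 call was lost (0.21, 0.29 and 0.29, limma adjusted p = 0.060, 0.076 and 0.061), as it was with no filter (limma adjusted p = 0.068) and without the cluster of low UMI counts (0.0967, limma adjusted p = 0.52), while Ccl4 and Ccl5 kept theirs.

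**Figure D5:**
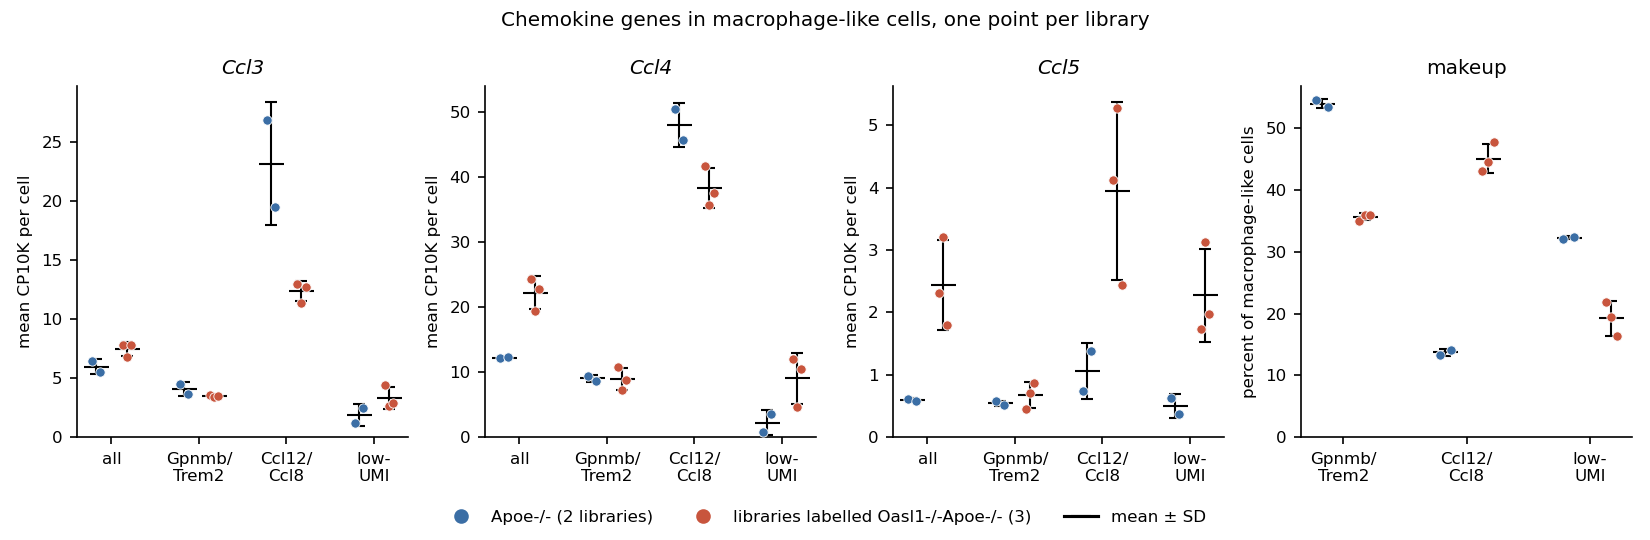
Mean CP10K per cell (y axes, from 0) of Ccl3, Ccl4 and Ccl5 in all macrophage-like cells and in each of their 3 clusters, and the percent of macrophage-like cells in each cluster (right), 1 point per library with mean ± SD of each group. Ccl3 is higher over all cells but lower within the Ccl12 and Ccl8 cluster, whose share is 13.7% in Apoe-/- and 45.1% in the other libraries.

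Chemokines other than the 3 rose in macrophage-like cells as well, with 7 of 11 tested past the threshold and none lower. The largest rises were in Ccl8 (2.15 ± 0.116), Ccl7 (2.10 ± 0.114), Ccl12 (1.70 ± 0.0838) and Ccl2 (1.42 ± 0.104), ligands of CCR2 and related receptors, with limma adjusted p from 2.4e-09 to 1.8e-07. As Ccl12 and Ccl8 also define a cluster, their level and the share of that cluster cannot be told apart here. Of 11 tested inflammatory genes, Ptgs2 (0.72 ± 0.163) and Nfkbiz (0.55 ± 0.0914) rose and Il1a fell (-1.32 ± 0.162). Markers of other cells moved as well. Smooth muscle markers fell, 3 of 3, with a summed level of 24.2 and 24.6 against 12.5 to 14.2 CP10K, and 2 of 3 red cell genes fell (18.8 and 20.8 against 0.591 to 12.5 CP10K). Fibroblast markers rose, 2 of 2, from 0.132 to 0.463 up to 0.541 to 1.46 CP10K, and the part of these in the differences was not tested.

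Over all cells of the aorta, 8 of the 9 genes were higher in the libraries labelled Oasl1-/-Apoe-/-, where 20.5% of 9836 genes tested were higher. In such a mean, more cells of a type and more RNA per cell cannot be told apart. Ccl4 rose most, from 3.14 and 2.31 to 9.88, 8.64 and 9.83 CP10K (1.79 ± 0.106, limma adjusted p = 6.1e-07), followed by Ccl5 (1.48 ± 0.0965), Nkg7 (1.43 ± 0.0974), Ccl3 (1.32 ± 0.0787), Gzmk (1.27 ± 0.107), Pdcd1 (1.26 ± 0.101) and Gzmb (1.0 ± 0.147). Prf1 rose least (0.46 ± 0.119, limma adjusted p = 0.011), and by only 0.26 without Apoe-/- library 2. Its mean was 0.0359 CP10K in Apoe-/- libraries, under the filter of 0.05, and 0.0674 in the others. Prf1 thus passed the filter only through the libraries where it was high, and its place among the 8 genes is a description. Gzma was 0.285 and 0.444 against 0.215, 0.376 and 0.441 CP10K and overlapped (-0.09 ± 0.227, limma adjusted p = 0.77, 95% interval -0.60 to 0.41). Its main source, the Cd3- cells, numbered 17 and 10 in the Apoe-/- libraries and 10, 9 and 14 in the others.

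CD8+ cells made up 1.64% and 1.31% of all cells in the Apoe-/- libraries and 3.17%, 3.8% and 3.59% in those labelled Oasl1-/-Apoe-/-, with no overlap (exact two-sided permutation p = 0.1, the smallest this design can give). Other Cd3+ cells made up 0.760% ± 0.000384 against 1.51% ± 0.156 of all cells (exact permutation p = 0.1). The CD8+ share of Cd3+ cells was 65.9% ± 3.56 against 69.9% ± 3.39, a difference of 4.06 percentage points (exact permutation p = 0.3).

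Over the 11 cell classes and 5 libraries (55 points), the genes with the profile most like the mean of the 9 were Ms4a4b (Pearson r = 0.926), Fasl, Trbc1, Sh2d1a and Ifng (r = 0.921 to 0.922). The points share libraries and depth, and r is given as a description. Between the 9 genes, Gzma, Gzmb, Gzmk, Nkg7 and Pdcd1 had r of 0.967 to 0.989 with each other, and Ccl3 and Ccl4 0.881 with each other but at most 0.135 (Ccl3) and 0.374 (Ccl4) with the rest. Only classes with at least 10 cells in every library entered, which left out the Cd3- cells and the cycling macrophage-like cells. In the Cd3- cells Gzma was at 63.4 CP10K and Gzmk and Pdcd1 at 0.470 and 1.03, so these r do not cover the class where they part.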

How the data were processed

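Reads of the 5 libraries were mapped by the authors to mm10 with Cell Ranger 3.1.0, filtered with Seurat 4.0.3 (cells with over 200 genes and under 10% mitochondrial UMIs) and cleared of doublets with DoubletFinder. As deposited, each value is a natural log, ln(1 + CP10K), where CP10K stands for UMIs per 10000 UMIs of a cell. Undoing the log gave whole UMIs for 100% of values (tolerance 0.01). Genes seen in very few cells of a library may have been set to 0 before deposit. Cell classes were rebuilt without the 9 genes: 2000 variable genes, 12 principal components, 20 neighbours and Leiden clustering at resolution 1 (scanpy 1.11.5), named from fixed markers, so they may differ from those of the study. CD8+ and other Cd3+ cells were taken in the NK/T-like clusters, which left out 60 of 743 Cd3+ cells.

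Per library, log2(mean CP10K + 0.5) of genes at 0.5 CP10K or more (0.05 and 0.05 for macrophage-like cells and the whole aorta) was tested with limma 3.58.1 (eBayes with trend), with Benjamini-Hochberg adjustment over all genes tested, the library as replicate and, for CD8+ against other Cd3+ cells, as block. The fits were tested on simulated data. Named were the 9 genes, up to 6 genes per fixed list past the threshold by size, the 5 largest differences of each sign between CD8+ and other Cd3+ cells that kept their sign in every library, and the 5 genes most alike in profile. The 9 genes and the lists were chosen with earlier results of these data known. Coordinates are from GENCODE M21. Alternatives were another pseudocount, no filter, deposited log values, limma-voom, other cell definitions, a replicate block and leaving out each library. A gene of the fixed lists is not reported here.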

Additional observations from a re-analysis of the deposited data

Results flagged for a closer look

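The estimated group difference of Gzma had opposite signs in the 2 T cell classes, and the estimate in CD8+ cells did not pass the test. Gzma was flagged for the pattern of signs per library given below, so the unadjusted p-value from the same values is not separate support. The difference between CD8+ and other Cd3+ cells was 1.98 ± 0.478 on the log2 scale larger in the libraries labelled Oasl1-/-Apoe-/- (limma unadjusted p = 0.0029, adjusted p = 0.57 over all genes tested). In both Apoe-/- libraries Gzma was lower in CD8+ than in other Cd3+ cells, by -1.96 and -0.30, and in the 3 others it was higher, by 0.67, 1.21 and 0.66. Few cells carried it, with 2 and 8 CD8+ cells in the Apoe-/- libraries, 9, 17 and 16 in the others, and 14 other Cd3+ cells in all.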

How the results depend on the processing

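Of 622 values of the 9 genes under the alternatives, 548 kept the direction and the side of the threshold, 34 lost the call, 16 gained one and 24 had the opposite sign. Cells without cycling T cells, without Trdc cells and single macrophage clusters were chosen as alternatives after seeing the data. Left-out libraries leave 1 Apoe-/- library in some fits, which is then assumed to vary like the others.

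Members past the threshold in CD8+ cells numbered 3, not 5, with limma-voom and with the replicate block, and 4 to 6 under the other alternatives, most of which lost Gzmb. In other Cd3+ cells the number was 1, but 2 without a filter, 0 with limma-voom, 0 in cells with at least 1000 UMIs, 3 with the block and 1 to 2 without a library. In the Gpnmb and Trem2 cluster alone it was 0 of 3. The cause was not tested.

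Gzma in CD8+ against other Cd3+ cells was -0.024 with at least 2 Cd3 UMIs and -0.082 without Trdc cells, and ran from -0.23 to 0.56 without 1 library. Leaving out a library in other Cd3+ cells gave -1.51 to 0.16 for Gzmb, -0.18 to 1.23 for Ccl3 and -0.24 to 0.11 for Nkg7. The difference between classes for Gzmk was 0.13 on deposited log values, 0.031 with at least 2 Cd3 UMIs and 0.15 with at least 1000 UMIs, that for Pdcd1 -0.061 and -0.14 under the latter settings, and that for Ccl4 -0.70 to 1.03 without a library. In macrophage-like cells Ccl3 and Ccl4 were -0.59 and -0.086 with equal weights, -0.89 and -0.33 in the Ccl12 and Ccl8 cluster, and -0.23 and -0.034 in the Gpnmb and Trem2 cluster. Over the whole aorta Gzma was 0.0061 on deposited log values and -0.37 to 0.19 without a library.

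Genes called in CD8+ against other Cd3+ cells numbered 128, but 38 without a filter, 224 on deposited log values, 327 with all Cd3+ cells and as few as 78 without a library (replicate 1 labelled Oasl1-/-Apoe-/-). In CD8+ cells they numbered 108, but 48 with limma-voom and 37 to 165 without a library. For the groups in other Cd3+ cells they numbered 22, but 39 without a filter, 3 with limma-voom, 14 with all Cd3+ cells, 9 with at least 2 Cd3 UMIs, 3 with at least 1000 UMIs and 8 to 37 without a library. In macrophage-like cells they numbered 1318, but 826 without replicate 1 and 850 without replicate 3 labelled Oasl1-/-Apoe-/-, 438 with equal weights, and 439, 533 and 142 in the Ccl12 and Ccl8, Gpnmb and Trem2, and low-UMI clusters.

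Replicate numbers 1 and 2 are shared by the groups, but same-numbered libraries deviated together only weakly (r of 0.142 and 0.0659 in CD8+, 0.0606 and 0.109 in other Cd3+, 0.022 and 0.00173 in macrophage-like cells), so the numbers are not taken to pair them. With the replicate block, Nkg7 and Gzmb lost their calls in CD8+ cells (limma adjusted p = 0.060 and 0.22), Gzmb (-1.18) and Ccl5 (-0.45) passed in other Cd3+ cells, Gzma (-0.27) passed over the whole aorta, and the genes called numbered 24 in CD8+ and 36 in other Cd3+ cells. It changed no other call of the 9 genes.

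With 31 to 122 T cells of a class per library and medians of at most 2076 UMIs per cell, genes such as Prf1 rested on few UMIs.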

Other observations

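Neutrophil-like cells, the class with the highest Ccl3, held 122 and 140.5 CP10K of it in the Apoe-/- libraries and 205, 214 and 202 in those labelled Oasl1-/-Apoe-/-, from 18 to 26 cells per library. Their median UMIs per cell were 751 and 806.5 in the Apoe-/- libraries and 1216, 1295 and 1172 in the others, and the part of depth was not tested. This class was in no comparison between groups.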
